A study of Homo sapiens with 24 samples.

Results

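The set described here holds 42 genes of the nucleolus, the part of the nucleus in which ribosomes are made. They were chosen by name, as components of RNA polymerase I or its factors, of the particles that modify ribosomal RNA, and of the machinery that assembles both ribosomal subunits. On the Illumina HumanHT-12 v4 BeadChip, 38 of the 42 genes had a probe under their symbol, with 65 probes in all, and 59 probes of 37 genes passed the detection filter (detection p under 0.05 on at least 2 of 24 arrays), out of 25017 probes tested in the whole series. WDR43, GNL3, DDX18 and EBNA1BP2 were not analysed here because no probe carried their symbol, and the probe of NPM1 was detected on 0 arrays and was not tested. Of the 59 probes, 52 were detected on all 24 arrays, and 14 genes had several tested probes.

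The study exposed 3 human B-cell lymphoma cell lines to artesunate, a semisynthetic artemisinin derivative used against malaria, and profiled total RNA on the arrays. The lines were BL-41, from Burkitt lymphoma, with SU-DHL-4 plus Oci-Ly-2, both from diffuse large B-cell lymphoma of the germinal centre B-cell type. According to the study they were chosen for the state of MYC, which is translocated in BL-41 and mutated in Oci-Ly-2 but carries no translocation in SU-DHL-4. Each line gave 4 groups of 2 arrays, namely 4 h of artesunate at 5 µM, 12 h of artesunate at 5 µM, a 0 h control and a 12 h control, the controls having had no treatment by the labels, although the text of the study names a vehicle. Because no 4 h control was among the samples, the 4 h artesunate arrays were set against the 0 h control, so time in culture and artesunate cannot be told apart in that comparison. The 2 arrays of a group, numbered 1 and 3, are technical replicates by the series description, so p-values measure only the spread between arrays and each cell line stands for 1 culture. Where 3 values stand together for the lines, they are for BL-41, then SU-DHL-4, then Oci-Ly-2. All levels below are log2 units after background correction and quantile normalization (neqc in limma). A probe was called changed when its log2 fold change exceeded 0.5 in either direction with a Benjamini-Hochberg adjusted p under 0.01 in the limma fit over all 25017 probes. In bulk RNA, fewer cells with a transcript and less of it per cell cannot be told apart.

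The arrays were of similar brightness, with 16156 to 18171 probes detected and a median raw signal of 82.6 to 112 per array. Among B-cell markers, 4 of 5 genes with a probe (MS4A1, CD79A, CD79B and CD22) were detected on all 8 arrays of each line and PAX5 on 0 arrays. The germinal centre markers BCL6 and MME were detected on all 8 arrays of each line. LMO2 was detected on 1, 8 and 8 arrays of the 3 lines and MYBL1 on 2, 8 and 0. Of the markers of other cells, CD3D and CD3E (T cells), CSF1R and ITGAM (myeloid cells), HBB and HBA1 (red cells) and CDH1 (epithelium) were detected on 0 arrays. The T-cell genes CD2 and CD3G were detected on 2, 2 and 1 and on 1, 0 and 0 arrays of the 3 lines, and the epithelial genes EPCAM and KRT18 on 0, 2 and 1 and on 1, 0 and 0. The myeloid genes LYZ and CD14 were detected on 8, 7 and 7 and on 2, 3 and 3 arrays.

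In the nucleolus, RNA polymerase I transcribes the ribosomal DNA repeats into a long precursor RNA. Small nucleolar RNA particles of the box C/D type guide methylation of the precursor and those of the box H/ACA type guide pseudouridylation, while assembly factors fold and cut it into the RNAs of the small and large subunits. The pathway takes up much of a growing cell's transcription, and in human cells many of its genes are targets of MYC, which with its partner MAX binds the E-box CACGTG. The set therefore serves as a readout of growth control.

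The promoters are shown with the members that hold the E-box. The genes were chosen by name as a readout of growth control, a choice that may have favoured MYC targets. The shares below are therefore description only. RefSeq windows of 300 bases (250 before to 50 after the annotated start, assembly GRCh38.p14) were at hand for 33 of the 42 genes, and 17 of these 33 (51.5%) held CACGTG, which reads the same on both strands. Of all genes with a window, 2396 of 27305 (8.77%) held it. The share was 14 of 29 (48.3%) for the members tested here, 31 of 96 (32.3%) for other ribosome assembly factors and 4 of 63 (6.35%) for cytosolic ribosomal proteins. The 17 genes held 20 sites, 8 upstream and 12 downstream of the start. Below are the sites of FBL, whose level varied little, of MRTO4, IMP4 and BYSL, which are among the members with the 5 largest differences for a pair of untreated lines, of NOL6, which was called between 4 h and 12 h of artesunate in Oci-Ly-2, and of UTP20, which had the highest member log2 fold change at 4 h in SU-DHL-4. Then follow the 250 bases upstream of the starts of NOP16 and NOP56, the members with calls at 12 h. Capitals mark CACGTG, and neither the NOP16 nor the NOP56 window held it.
FBL, chr19:39846356-39846385, minus strand: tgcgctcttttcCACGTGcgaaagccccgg
MRTO4, chr1:19251807-19251836, plus strand: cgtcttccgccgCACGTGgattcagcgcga
IMP4 site 1, chr2:130342682-130342711, plus strand: gcggtcctaagtCACGTGtgacattctgta
IMP4 site 2, chr2:130342900-130342929, plus strand: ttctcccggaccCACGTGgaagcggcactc
BYSL, chr6:41921515-41921544, plus strand: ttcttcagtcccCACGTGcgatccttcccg
NOL6, chr9:33473894-33473923, minus strand: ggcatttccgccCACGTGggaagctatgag
UTP20, chr12:101280083-101280112, plus strand: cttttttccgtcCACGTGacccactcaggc
NOP16 upstream, chr5:176388599-176388848, minus strand: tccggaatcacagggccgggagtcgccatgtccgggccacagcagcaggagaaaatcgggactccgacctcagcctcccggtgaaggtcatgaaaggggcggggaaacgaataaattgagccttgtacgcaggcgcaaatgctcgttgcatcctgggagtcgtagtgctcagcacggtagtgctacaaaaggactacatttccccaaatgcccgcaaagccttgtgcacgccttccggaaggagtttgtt
NOP56 upstream, chr20:2652382-2652631, plus strand: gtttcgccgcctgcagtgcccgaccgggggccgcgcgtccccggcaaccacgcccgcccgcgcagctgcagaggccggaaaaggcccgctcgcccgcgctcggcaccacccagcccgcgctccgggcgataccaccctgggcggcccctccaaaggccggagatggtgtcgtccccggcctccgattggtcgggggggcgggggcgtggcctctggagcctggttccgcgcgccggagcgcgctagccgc

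BOP1, DDX18, NOLC1, NOP58, POLR1E, RRP12, RRP1B, RRS1 and TCOF1 had no window. A match is a stretch of letters and no measure of binding. The genes printed were picked by their levels, and whether a match went with the levels was not tested.

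The comparison of 12 h artesunate with 12 h control asks which transcripts differ after that exposure. NOP16, a factor of large subunit assembly, and NOP56, a core protein of the box C/D particles, were lower with artesunate in Oci-Ly-2, NOP16 by 1.72-fold and NOP56, by 1 of its 3 probes, by 1.91-fold, and no member was called higher. The calls covered 3 of 59 member probes in Oci-Ly-2, all lower, against 1.44% of all tested probes called lower and 1.59% called higher there. With both directions together, 3.03% of all probes were called in that line. In BL-41 0 of 59 were called, beside 0.572% of all probes called lower and 0.939% higher (1.51% together). In SU-DHL-4 0 of 59 were called, beside 0.344% of all probes lower and 0.588% higher (0.931% together). At an unadjusted p under 0.05, 4 probes were lower and 1 higher in BL-41, 10 lower and 1 higher in SU-DHL-4, and 11 lower and 0 higher in Oci-Ly-2, which are 8.47%, 18.6% and 18.6% of the 59 beside 14.4%, 15.8% and 19.2% of all probes. These shares pool both directions, and pooled, the share of members was no higher than that of all probes in BL-41 and Oci-Ly-2. The shares of all probes in each direction are not given here, so the pooled shares say nothing about an excess of lower members.

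Most members lay a little below control at 12 h. The median log2 fold change of the 59 probes was -0.08, -0.16 and -0.15 in the 3 lines, whereas the medians of all probes were -0.0017, -2e-04 and 0.0023. Of the 59 probes, 37, 47 and 48 were below 0 in the 3 lines, in the same order (62.7%, 79.7% and 81.4%), compared with 50.3%, 50.04% and 49.6% of all probes. The artesunate arrays both lay below the control arrays for 23, 26 and 29 member probes, beside 23.7%, 22% and 24.4% of all probes, and both above for 6, 5 and 6, beside 22.4%, 22% and 25.6% of all probes. In all 3 lines 29 of 59 probes (49.2%) were below 0 and 2 (3.39%) above 0, whereas for all probes the shares were 21.8% each way. Some genes count more than once there. By the brightest probe of each gene, 16 of 37 (43.2%) were below 0 in all 3 lines and 2 (5.41%) above 0. Between the 2 arrays of a group the median of the member probes varied with a pooled SD of 0.0788, about the size of the shift in BL-41. Scaling each array to its median in place of quantile normalization moved the median of all probes by over 0.1 in some comparisons (for Oci-Ly-2 to -0.12 at 12 h and to 0.14 at 4 h against 0 h, and for SU-DHL-4 to -0.20 at 4 h against 0 h), and relative to it the members stood at -0.21, -0.19 and -0.09 at 12 h in the 3 lines.

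NOP16 was measured by 2 probes, which gave the same picture. In Oci-Ly-2 the brighter probe, ILMN_1704055, read 9.85 and 9.99 at 4 h and 9.20 and 8.86 at 12 h of artesunate, against 9.77 and 9.80 at 0 h and 9.80 and 9.82 at 12 h without it. Both 12 h artesunate arrays lay below all 6 other arrays of the line. The 12 h difference was -0.78 (SE 0.17, adjusted p = 0.00626 in limma). In SU-DHL-4 the probe read 10.24 and 10.34 at 4 h and 9.69 and 9.24 at 12 h of artesunate, against 9.92 and 10.12 at 0 h and 10.18 and 9.98 at 12 h without it, again lowest at 12 h of artesunate, and the difference of -0.61 was not called (adjusted p = 0.0508). In BL-41 it read 10.44 and 10.16 at 4 h and 9.83 and 9.96 at 12 h of artesunate, against 10.22 and 10.01 at 0 h and 10.22 and 9.99 at 12 h without it. The BL-41 difference was -0.21 (adjusted p = 0.666), and the groups did not overlap although they lay close together. At 4 h the probe stood 0.19, 0.27 and 0.14 above the 0 h control in the 3 lines, none of them called.

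The second NOP16 probe, ILMN_3247723, read 9.84 and 9.76 at 4 h and 8.88 and 8.93 at 12 h of artesunate, against 9.70 and 9.71 at 0 h and 9.67 and 9.64 at 12 h without it in Oci-Ly-2. Its 12 h difference there was -0.75 (SE 0.16, adjusted p = 0.00685), or 1.68-fold lower. In SU-DHL-4 it read 10.09 and 10.29 at 4 h and 9.77 and 9.15 at 12 h of artesunate, against 9.81 and 9.93 at 0 h and 10.01 and 10.003 at 12 h without it. The 2 artesunate arrays at 12 h lay far apart in that line, and the difference was -0.55 (adjusted p = 0.0716). In BL-41 it read 10.20 and 10.07 at 4 h and 9.76 and 9.92 at 12 h of artesunate, against 10.07 and 9.92 at 0 h and 10.11 and 9.91 at 12 h without it, with overlapping groups at 12 h and a difference of -0.17 (adjusted p = 0.743). The calls of NOP16 rest on few arrays, and under median scaling neither probe was called. Without Oci-Ly-2 12 h artesunate replicate 3, or without either 12 h control array, neither probe was called, and without 12 h artesunate replicate 1 only ILMN_1704055 was, with differences over the 4 fits of -0.95 to -0.61 for ILMN_1704055 (adjusted p = 0.0098 to 0.136) and of -0.77 to -0.72 for ILMN_3247723 (adjusted p = 0.0462 to 0.0551). In SU-DHL-4, leaving out 12 h artesunate replicate 1 made ILMN_3247723 a call, at -0.86 (adjusted p = 0.00657).

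The 3 probes of NOP56 did not agree in size. The call came from the dimmest, ILMN_1705407, which in Oci-Ly-2 read 8.82 and 8.70 at 4 h and 8.39 and 8.05 at 12 h of artesunate, against 9.07 and 9.03 at 0 h and 9.17 and 9.13 at 12 h without it. Both 12 h artesunate arrays were the lowest of the line, and the difference was -0.93 (SE 0.17, adjusted p = 0.00194). In SU-DHL-4 this probe read 8.19 and 8.67 at 4 h and 8.60 and 8.29 at 12 h of artesunate, against 8.83 and 9.17 at 0 h and 9.03 and 9.15 at 12 h without it, and in BL-41 8.60 and 8.65 at 4 h and 8.62 and 8.88 at 12 h of artesunate, against 9.26 and 9.39 at 0 h and 9.25 and 9.22 at 12 h without it. Artesunate arrays lay below control arrays in both lines, with 12 h differences of -0.64 (adjusted p = 0.0458) in SU-DHL-4 and -0.48 (adjusted p = 0.154) in BL-41, which are not calls. Against the 0 h control the same probe already stood at -0.70, -0.57 and -0.29 at 4 h in the 3 lines, again without a call (adjusted p = 0.0845, 0.146 and 0.77). Without Oci-Ly-2 12 h artesunate replicate 3, or without either 12 h control array, the Oci-Ly-2 call was lost, with differences of -1.10 to -0.76 over the 4 fits and adjusted p = 0.00412 to 0.0626.

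The other NOP56 probes differed less. ILMN_2044832 read 9.66 and 9.46 with artesunate against 9.95 and 10.09 without it at 12 h in Oci-Ly-2, a difference of -0.46 (adjusted p = 0.056), and its differences were -0.34 in SU-DHL-4 and -0.11 in BL-41. The brightest probe, ILMN_1787628, read 11.54 and 11.59 with artesunate against 11.82 and 11.79 without it at 12 h in Oci-Ly-2, where the groups did not overlap but differed by only -0.24 (adjusted p = 0.444). In SU-DHL-4 it differed by 0.03 and in BL-41 by -0.05. All 3 probes are annotated to the same RefSeq transcript of NOP56, and only 1 of them was called.

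**Figure D1:**
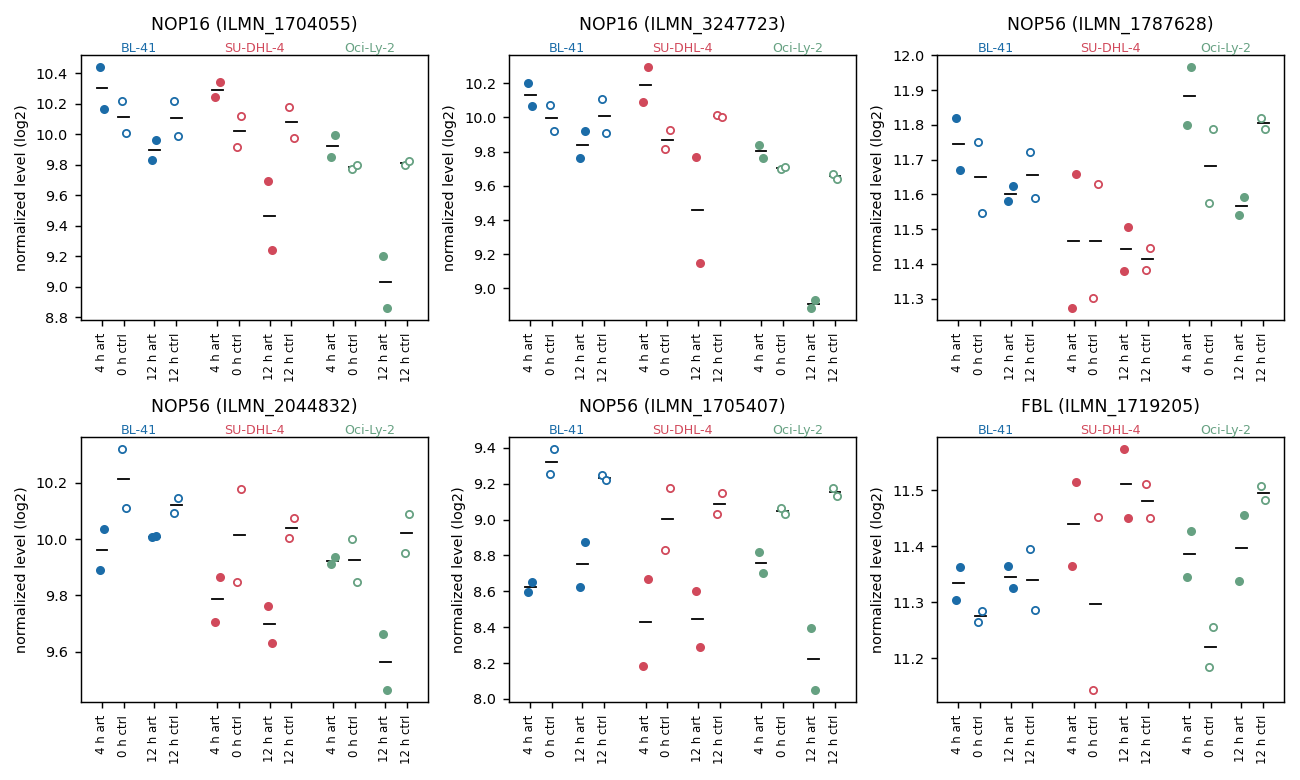
Normalized level (log2, vertical axis) of both NOP16 probes, the 3 NOP56 probes and FBL on every array, by cell line and group (horizontal axis), with filled points for artesunate, open points for control and a short line for the mean of 2 arrays. Both NOP16 probes are lowest at 12 h of artesunate in SU-DHL-4 as well as Oci-Ly-2, and the NOP56 probe ILMN_1705407 lies below control in every line at 4 h and at 12 h.

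Among the box C/D proteins, NOP58, which pairs with NOP56 in the particle, differed by 0.17, 0.10 and -0.15 at 12 h in the 3 lines (adjusted p = 0.644, 0.789 and 0.621). FBL, the methyltransferase of the particle, was nearly level. It read 11.30 and 11.36 at 4 h and 11.37 and 11.32 at 12 h of artesunate, against 11.27 and 11.28 at 0 h and 11.39 and 11.29 at 12 h without it in BL-41. In SU-DHL-4 FBL read 11.37 and 11.52 at 4 h and 11.57 and 11.45 at 12 h of artesunate, against 11.14 and 11.45 at 0 h and 11.51 and 11.45 at 12 h without it. In Oci-Ly-2 it read 11.35 and 11.43 at 4 h and 11.34 and 11.45 at 12 h of artesunate, against 11.18 and 11.26 at 0 h and 11.51 and 11.48 at 12 h without it, the 12 h artesunate arrays just below the 12 h control arrays. The FBL differences at 12 h were 0.00, 0.03 and -0.10 with an SE of 0.13, and none was called.

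The box H/ACA proteins showed the same small shift without a call, with 10, 8 and 10 of 11 probes below 0 at 12 h in the 3 lines and medians of -0.20, -0.16 and -0.15. GAR1, a structural partner in the particle, was below control by all 4 probes in all 3 lines, from -0.01 to -0.66. Its probe ILMN_3263329 reached -0.66 in Oci-Ly-2 (adjusted p = 0.0221), the largest difference of the group. NOP10, the smallest partner, stood at -0.38 in Oci-Ly-2 (adjusted p = 0.143) by its brighter probe, and NHP2 between -0.19 and 0.02 by its brightest. DKC1, the pseudouridine synthase itself, stood above control, at 0.22, 0.07 and 0.23, and was not called (adjusted p = 0.458, 0.851 and 0.333).

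Small subunit factors had medians of -0.06, -0.18 and -0.11 at 12 h, with 6, 7 and 8 of 10 probes below 0 and none called. IMP3, which in yeast helps U3 RNA pair with the precursor, stood at -0.09, -0.42 and -0.26 (adjusted p = 0.0916 in SU-DHL-4). NOL6, a processome subunit, stood at 0.01, -0.27 and -0.41 (adjusted p = 0.139 in Oci-Ly-2) by its brighter probe, and at -0.20, 0.23 and -0.16 by the other. NOP14, also of the processome, was above control in SU-DHL-4 as well as Oci-Ly-2, at 0.28 and 0.24, and IMP4 in SU-DHL-4, at 0.29, none called. UTP20, RRP9, BYSL and RRP12 lay between -0.32 and 0.20.

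Large subunit factors had medians of -0.03, -0.25 and -0.22 and 9, 16 and 14 of 17 probes below 0. Besides NOP16, RRP1B stood at -0.42, -0.36 and -0.56 in the 3 lines (adjusted p = 0.275, 0.34 and 0.0705). NIP7 stood at -0.03, -0.36 and -0.45 and GRWD1, a histone-binding assembly factor, at -0.31, -0.27 and -0.37. In the complex of PES1, BOP1 and WDR12 the members parted, with PES1 at -0.23, -0.38 and -0.15, BOP1 at 0.29, 0.07 and 0.00 and WDR12 at 0.20, -0.21 and 0.09. None of these differences was called. The other large subunit genes, NOP2, RRS1, PPAN, WDR74 and MRTO4, ranged from -0.61 for WDR74 in SU-DHL-4 to 0.16 for NOP2 in BL-41 by their brightest probes.

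Of the other nucleolar proteins, NCL, an abundant RNA-binding protein, was slightly below control at 12 h in every line. Its brighter probe read 12.16 and 11.94 at 4 h and 11.76 and 11.86 at 12 h of artesunate, against 11.88 and 11.78 at 0 h and 12.04 and 11.89 at 12 h without it in BL-41. In SU-DHL-4 NCL read 11.83 and 11.94 at 4 h and 11.69 and 11.74 at 12 h of artesunate, against 11.62 and 11.88 at 0 h and 11.85 and 11.86 at 12 h without it. In Oci-Ly-2 it read 11.94 and 11.97 at 4 h and 11.73 and 11.55 at 12 h of artesunate, against 11.84 and 11.92 at 0 h and 11.84 and 11.99 at 12 h without it. The groups did not overlap at 12 h in any line, but the differences of -0.15, -0.14 and -0.28 were not called (adjusted p = 0.695, 0.686 and 0.266). NOLC1, a chaperone of small nucleolar particles, stood at -0.28, -0.29 and -0.28 and LYAR at -0.13, -0.30 and -0.28 by its brighter probe, while the other LYAR probe stood at 0.08, 0.01 and -0.07. The helicase DDX21 was at 0.11, -0.02 and 0.17, and NPM3 at -0.06, -0.04 and 0.18.

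**Figure D2:**
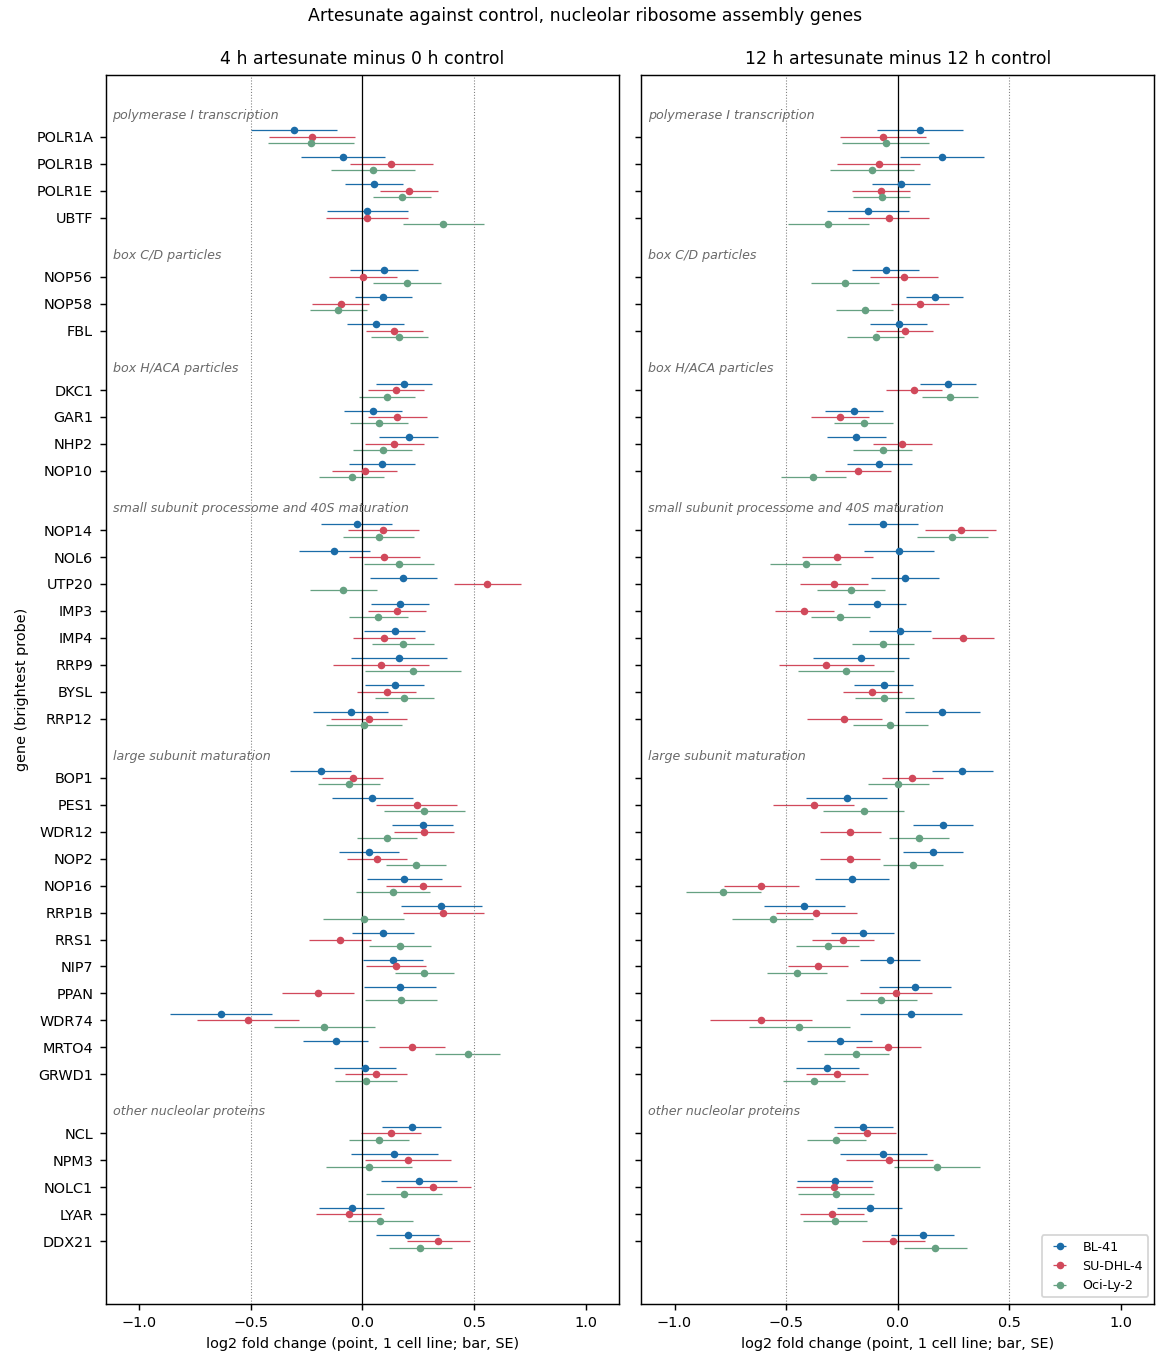
Log2 fold change (horizontal axis) of 36 member genes by their brightest probe, listed by role down the vertical axis, for 4 h artesunate minus 0 h control on the left and 12 h artesunate minus 12 h control on the right. Points are the 3 cell lines, bars the SE from limma and dotted lines the fold limit of 0.5, and TCOF1 is left out because it was not detected in some groups. Most points lie right of 0 at 4 h and left of 0 at 12 h, within 0.5 in either direction.

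The 9 probes of the polymerase I genes, the dim TCOF1 probe included, had 12 h medians of 0.02, -0.09 and -0.07, with 4, 8 and 6 below 0 and none called. Whether they differed from the other groups was not tested. POLR1A, the largest subunit, was a dim probe detected on 22 of 24 arrays, and read 4.43 and 4.92 at 4 h and 5.05 and 4.99 at 12 h of artesunate, against 4.93 and 5.03 at 0 h and 4.69 and 5.15 at 12 h without it in BL-41. In SU-DHL-4 POLR1A read 4.89 and 5.08 at 4 h and 4.98 and 4.84 at 12 h of artesunate, against 5.25 and 5.17 at 0 h and 5.10 and 4.85 at 12 h without it. In Oci-Ly-2 it read 4.96 and 5.04 at 4 h and 5.23 and 5.16 at 12 h of artesunate, against 5.43 and 5.03 at 0 h and 5.002 and 5.49 at 12 h without it. Its 12 h groups overlapped in all 3 lines, with differences of 0.10, -0.07 and -0.05 (SE 0.19).

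POLR1B, the second subunit of the catalytic core, read 6.499 and 6.48 at 4 h and 6.58 and 6.89 at 12 h of artesunate, against 6.54 and 6.61 at 0 h and 6.36 and 6.71 at 12 h without it in BL-41. In SU-DHL-4 it read 6.70 and 6.74 at 4 h and 6.70 and 6.39 at 12 h of artesunate, against 6.51 and 6.67 at 0 h and 6.66 and 6.60 at 12 h without it. In Oci-Ly-2 POLR1B read 5.82 and 5.55 at 4 h and 5.37 and 5.38 at 12 h of artesunate, against 5.53 and 5.75 at 0 h and 5.16 and 5.81 at 12 h without it, lower than in the other lines in every group. The 12 h groups overlapped in each line, at 0.20, -0.09 and -0.12 (SE 0.19). By its other probe, ILMN_2067101, the 12 h groups parted in SU-DHL-4, with 5.75 and 5.52 with artesunate against 6.20 and 6.09 without it, a difference of -0.51 that was not called (adjusted p = 0.077).

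POLR1E, a peripheral subunit, read 9.19 and 9.18 at 4 h and 9.04 and 9.25 at 12 h of artesunate, against 9.12 and 9.14 at 0 h and 9.05 and 9.21 at 12 h without it in BL-41. In SU-DHL-4 POLR1E read 9.84 and 9.72 at 4 h and 9.65 and 9.52 at 12 h of artesunate, against 9.63 and 9.52 at 0 h and 9.70 and 9.62 at 12 h without it. In Oci-Ly-2 it read 9.17 and 9.16 at 4 h and 9.07 and 8.86 at 12 h of artesunate, against 9.08 and 8.90 at 0 h and 9.05 and 9.02 at 12 h without it. Groups overlapped at 12 h, with differences of 0.02, -0.08 and -0.07 (SE 0.13) and of 0.16, -0.10 and 0.26 by its other probe. At 4 h both artesunate arrays lay above both 0 h arrays in each line, by 0.05, 0.21 and 0.18.

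UBTF, the factor that keeps ribosomal DNA open, read 6.33 and 6.27 at 4 h and 6.18 and 5.77 at 12 h of artesunate, against 6.42 and 6.15 at 0 h and 6.13 and 6.09 at 12 h without it in BL-41 by its brightest probe. In SU-DHL-4 UBTF read 6.15 and 6.25 at 4 h and 5.96 and 5.90 at 12 h of artesunate, against 6.07 and 6.29 at 0 h and 6.10 and 5.84 at 12 h without it. In Oci-Ly-2 it read 6.11 and 6.34 at 4 h and 5.66 and 5.91 at 12 h of artesunate, against 5.58 and 6.14 at 0 h and 6.20 and 5.996 at 12 h without it, with both 12 h artesunate arrays below both control arrays. The 12 h differences were -0.13, -0.04 and -0.31 (SE 0.18), none called. Averaged over the 3 lines, UBTF stood at -0.16 by this probe, at -0.24 by ILMN_2394264 and at -0.31 by ILMN_2287147. The last was dim, detected on 15 of 24 arrays and on 0 of the Oci-Ly-2 arrays at 12 h of artesunate. TCOF1, the nucleolar phosphoprotein treacle, was detected on only 3 of 24 arrays by its 1 tested probe. It lay at 4.57 and 5.21 at 4 h and 4.40 and 4.48 at 12 h of artesunate, against 4.46 and 4.48 at 0 h and 4.40 and 5.08 at 12 h without it in BL-41. In SU-DHL-4 it lay at 4.36 and 4.46 at 4 h and 4.43 and 4.39 at 12 h of artesunate, against 4.31 and 4.30 at 0 h and 4.45 and 4.30 at 12 h without it, and in Oci-Ly-2 at 4.57 and 4.74 at 4 h and 4.81 and 4.43 at 12 h of artesunate, against 4.34 and 4.36 at 0 h and 4.38 and 4.60 at 12 h without it. Most of these values are not well above background, so no fold is given for TCOF1.

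At 4 h of artesunate against the 0 h control the members lay on the other side of 0. No member probe was called in any line, while 0.056% of all probes were called for SU-DHL-4 (0.052% lower and 0.004% higher) and 0% for each of the others. The member medians were 0.10, 0.13 and 0.10, beside 0.0178, 0.0267 and 0.0061 for all probes. The artesunate arrays both lay above the control arrays for 22, 25 and 28 of 59 probes (all probes, 20.6%, 20.7% and 18.4%) and both below for 8, 5 and 5 (all probes, 17.4%, 16.1% and 18.6%). In all 3 lines 34 of 59 probes (57.6%) were above 0, against 22.6% of all probes. At an unadjusted p under 0.05 there were 4, 5 and 2 member probes (3, 3 and 0 lower), which are 6.78%, 8.47% and 3.39% beside 8.24%, 10.8% and 7.52% of all probes. Under median scaling the members stood, relative to all probes, at 0.12, 0.34 and -0.0046 in the 3 lines, so the early shift in Oci-Ly-2 was not seen under that scaling.

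The 4 h values of single genes were small. The probe NOP2 ILMN_1666960, for an rRNA methyltransferase, stood at 0.62, 0.04 and 0.52 (adjusted p = 0.146 in BL-41), while its brightest probe stood at 0.03, 0.06 and 0.24. UTP20 was at 0.56 in SU-DHL-4 (adjusted p = 0.0961) but 0.18 in BL-41 and -0.09 in Oci-Ly-2. WDR74 and the GAR1 probe ILMN_3263329 lay below the 0 h control, like the NOP56 probe described above, WDR74 at -0.63, -0.51 and -0.17 and GAR1 at -0.47, -0.35 and -0.28, none called. DDX21 and NOLC1 lay above the 0 h control in each line, DDX21 by 0.20, 0.34 and 0.26 and NOLC1 by 0.25, 0.32 and 0.18, again without a call. Box H/ACA, small subunit and large subunit genes had positive medians in every line (0.09 to 0.16, 0.10 to 0.14 and 0.09 to 0.15). The polymerase I genes had medians of -0.09, 0.10 and 0.05, and the 5 box C/D probes had 0.06, -0.10 and -3e-04.

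Without artesunate the set differed little between the times, and the medians of 12 h control minus 0 h control were 0.01, 0.04 and -0.0059, and no member was called, while 0.004%, 0% and 0.00799% of all probes were. At an unadjusted p under 0.05 there were 2, 3 and 3 probes of 59, which are 3.39%, 5.08% and 5.08% beside 5.68%, 9.43% and 4.94% of all probes.

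From 4 h to 12 h of artesunate the member medians lay below 0 in the 3 lines. The medians of 12 h minus 4 h were -0.13, -0.21 and -0.28, and under median scaling, relative to all probes, they were -0.26, -0.37 and -0.15, so that the order of the lines depended on the scaling. In the first of these fits 33 of 59 probes (55.9%) were below 0 in all 3 lines, against 21.5% of all probes. Calls numbered 0, 0 and 5, all lower, while 0.204%, 0.22% and 1.18% of all probes were called lower. Of all probes, 0.787%, 0.448% and 1.5% were called higher, and 0.991%, 0.668% and 2.67% in either direction. The 12 h arrays both lay below the 4 h arrays for 29, 37 and 39 member probes (all probes, 23.5%, 22.3% and 23.5%) and both above for 8, 4 and 2 (all probes, 20.9%, 20.2% and 24.7%). This comparison shares its arrays with the comparisons above and is no separate test of them. In Oci-Ly-2 the calls were both NOP16 probes, at -0.89 each (adjusted p = 0.00252 and 0.00198), and NIP7, NOL6 and RRS1, which were singled out after their values were seen.

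NIP7, a ribosome assembly factor, read 9.78 and 9.75 at 12 h of artesunate in Oci-Ly-2 against 10.63 and 10.47 at 4 h, a difference of -0.79 (adjusted p = 0.00117). NOL6 read 8.95 and 9.003 against 9.85 and 9.81, a difference of -0.85 (adjusted p = 0.00237). RRS1, which in yeast helps bring the 5S particle to the large subunit, read 8.54 and 8.35 against 9.09 and 9.14, a difference of -0.67 (adjusted p = 0.0054). In each case the 2 groups were well apart. The same differences were -0.07, -0.13 and -0.31 in the BL-41 line, and in the SU-DHL-4 line -0.63, -0.52 and -0.40, none called. GRWD1 was alike in all 3 lines, at -0.55, -0.54 and -0.54 (adjusted p = 0.0378, 0.0494 and 0.0245). Without any 1 of the 4 Oci-Ly-2 arrays at least 4 of the 5 calls were lost, since without 4 h artesunate replicate 1 or 12 h artesunate replicate 3 0 calls were left and without 4 h replicate 3 or 12 h replicate 1 there was 1.

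**Figure D3:**
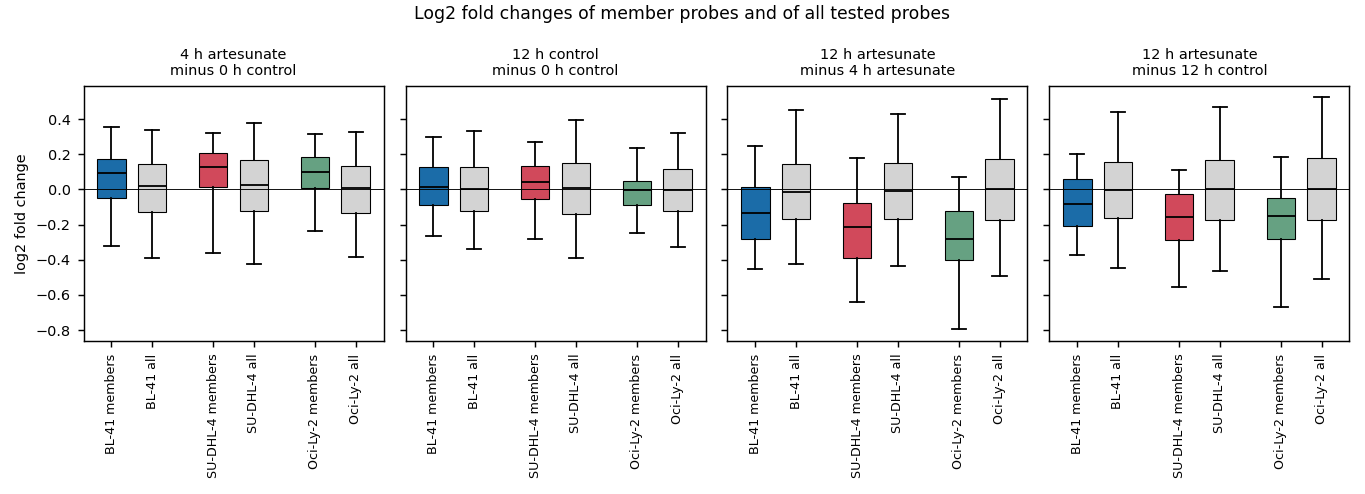
Log2 fold changes (vertical axis) of the 59 member probes (coloured) and of all 25017 tested probes (grey) in each cell line for 4 comparisons. Boxes span the quartiles with the median as a line, and whiskers reach the 5% and 95% quantiles. The member medians lie above 0 at 4 h, near 0 between the controls and below 0 at 12 h of artesunate, where they are -0.08, -0.16 and -0.15.

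Whether the 12 h response differed between the lines was tested as the difference of the differences. None of the 59 member probes was called for BL-41 minus SU-DHL-4, BL-41 minus Oci-Ly-2 or SU-DHL-4 minus Oci-Ly-2, with 0.064%, 0.12% and 0.02% of all probes called, and 2, 3 and 1 member probes had an unadjusted p under 0.05 (3.39%, 5.08% and 1.69%, beside 6.72%, 6.28% and 7.59% of all probes). The calls of NOP16 and NOP56 in Oci-Ly-2 were therefore not shown to be particular to that line. With the cell line as the replicate, the 2 arrays being averaged first, only NOP56 ILMN_1705407 was called, at -0.69 (SE 0.11, adjusted p = 0.00997), while 1.03% of all probes were called lower. NOP16 stood at -0.53 and -0.49 by its 2 probes in that fit (adjusted p = 0.0345 and 0.0469), and RRP1B at -0.45 (adjusted p = 0.0274). The NOP56 call was lost without SU-DHL-4, without the Oci-Ly-2 cells, under median scaling and with no or a stricter detection filter, each time leaving 0 calls. The fit with 1 probe per gene also had 0 calls, but it kept the brightest NOP56 probe, ILMN_1787628. It did not hold ILMN_1705407 and is no check of that call. In the main fit with the cell line as the replicate, 18 of 59 member probes (30.5%) had an unadjusted p under 0.05, all lower. Of all probes, 22.8% had such a p in that fit, 2891 of them lower and 2820 higher.

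Untreated cells of the 3 lines differed in single members by up to 1.499, for MRTO4 in BL-41 over Oci-Ly-2, while the 12 h differences with artesunate reached -0.93 for a NOP56 probe. The levels are means ± SD over the 4 control arrays of a line (0 h and 12 h). For 24 of 37 genes the mean level was highest in BL-41, while SU-DHL-4 led for 7 and Oci-Ly-2 for 6. This count ranks means however close they lie, includes the dim TCOF1, and has no count for all genes beside it. Between BL-41 and SU-DHL-4, 14 of 59 probes were called (12 higher and 2 lower in BL-41), with 19.4% of all probes called (9.64% higher and 9.73% lower). Between BL-41 and Oci-Ly-2 there were 11 calls (10 higher and 1 lower in BL-41), with 19.3% of all probes (9.55% and 9.75%), and for SU-DHL-4 against Oci-Ly-2 10 calls (7 higher and 3 lower in SU-DHL-4), with 19.4% (9.61% and 9.83%). Pooled over both directions, the shares of members called, 14, 11 and 10 of 59, were thus near those of all probes. By direction the member calls were less even than those of all probes, with 12 of 14 and 10 of 11 higher in BL-41. This unevenness was not tested. Median differences were 0.15, 0.18 and 0.0076, and under median scaling, relative to all probes, they were 0.37, 0.31 and -0.08, so that the sign turned for SU-DHL-4 minus Oci-Ly-2. Without SU-DHL-4 0 h control replicate 1 the median for BL-41 minus SU-DHL-4 was 0.07. Of the 35 calls, 28 held when any 1 control array was left out, and the 7 others were of DKC1, POLR1E, GAR1 (2 probes), NOL6, LYAR and WDR12.

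MRTO4, which acts in large subunit assembly, separated the lines most, at 9.51 ± 0.09 for BL-41, 8.84 ± 0.05 for SU-DHL-4 and 8.01 ± 0.17 for Oci-Ly-2 (SD, n = 4). The 3 lines did not overlap, and BL-41 exceeded Oci-Ly-2 by 1.499 (SE 0.10, adjusted p = 3.77e-10 in limma). POLR1B was at 6.55 ± 0.15 for BL-41, 6.61 ± 0.08 for SU-DHL-4 and 5.56 ± 0.29 for Oci-Ly-2 (SD, n = 4), so that BL-41 and SU-DHL-4 did not differ beyond their spread while both exceeded Oci-Ly-2, by 0.99 and 1.05 (adjusted p = 4.88e-06 and 2.22e-06). Its other probe gave 0.96 for both. BOP1 was at 11.34 ± 0.13 for BL-41, 10.18 ± 0.09 for SU-DHL-4 and 11.03 ± 0.06 for Oci-Ly-2 (SD, n = 4), lowest in SU-DHL-4, with BL-41 above SU-DHL-4 by 1.16 (adjusted p = 6.43e-09).

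NOLC1 and RRP12, an export factor of the small subunit, were highest in BL-41. NOLC1 was at 8.92 ± 0.22 for BL-41, 7.85 ± 0.30 for SU-DHL-4 and 8.24 ± 0.08 for Oci-Ly-2 (SD, n = 4), and BL-41 exceeded SU-DHL-4 by 1.08 (adjusted p = 4.21e-07) and Oci-Ly-2 by 0.68. RRP12 was at 8.89 ± 0.17 for BL-41, 8.07 ± 0.20 for SU-DHL-4 and 7.86 ± 0.21 for Oci-Ly-2 (SD, n = 4), and BL-41 exceeded the other lines by 0.83 and 1.03. BYSL, which acts in late 40S maturation, was likewise highest in BL-41, at 9.11 ± 0.06 for BL-41, 8.37 ± 0.04 for SU-DHL-4 and 8.49 ± 0.13 for Oci-Ly-2 (SD, n = 4), while SU-DHL-4 against Oci-Ly-2 was not called (adjusted p = 0.374).

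RRS1 and IMP4 had other orders. RRS1 was at 9.03 ± 0.08 for BL-41, 9.72 ± 0.16 for SU-DHL-4 and 8.85 ± 0.17 for Oci-Ly-2 (SD, n = 4), highest in SU-DHL-4, which exceeded Oci-Ly-2 by 0.87 (adjusted p = 4.69e-07) while BL-41 was below SU-DHL-4 (-0.70, adjusted p = 1.01e-05). IMP4 was at 11.07 ± 0.07 for BL-41, 11.23 ± 0.11 for SU-DHL-4 and 11.84 ± 0.17 for Oci-Ly-2 (SD, n = 4), highest in Oci-Ly-2, which BL-41 fell short of by a difference of -0.76 and SU-DHL-4 by -0.61 (adjusted p = 2.79e-06 and 4.57e-05). FBL and NCL did not separate the lines, with differences from -0.12 to 0.12 over their 3 probes.

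**Figure D4:**
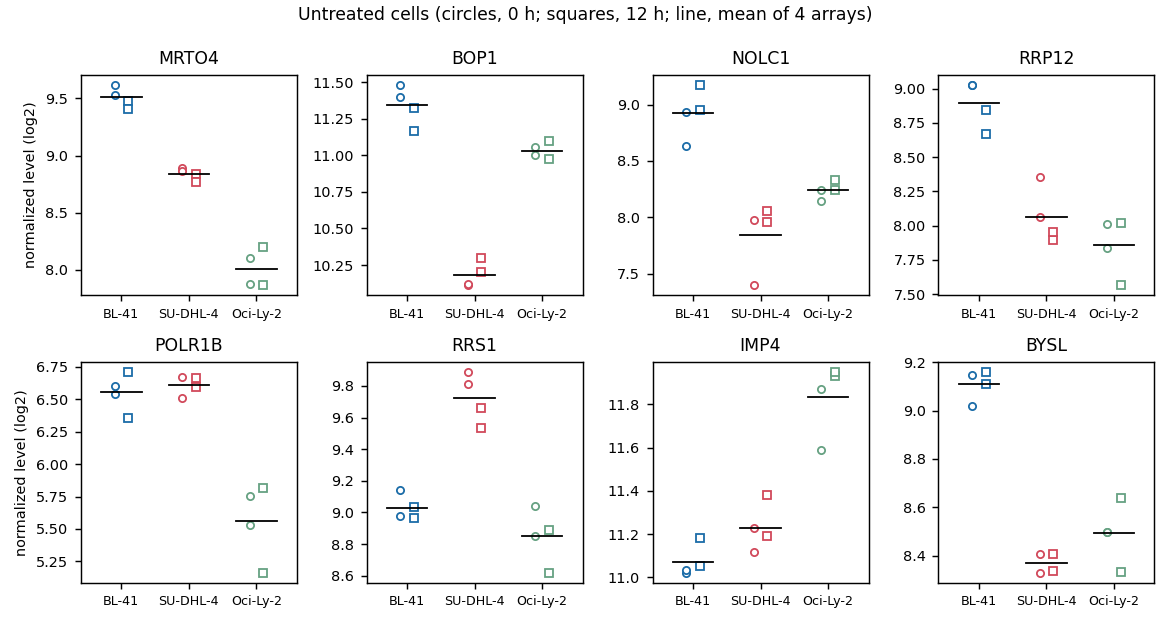
Normalized level (log2, vertical axis) of 8 members in untreated cells of the 3 lines (horizontal axis), with circles for 0 h arrays, squares for 12 h arrays and a line at the mean of 4 arrays. MRTO4 differs between all 3 lines, POLR1B is low in Oci-Ly-2, RRS1 is high in SU-DHL-4 and IMP4 is high in Oci-Ly-2, while NOLC1, RRP12 and BYSL are highest in BL-41.

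Outside the set, MYC did not follow a single direction by its 2 probes. Its brighter probe differed by -0.24, -0.26 and 0.24 at 12 h in the 3 lines and the other, ILMN_2110908, by -0.67, -0.78 and -0.14 (adjusted p = 0.0943, 0.0455 and 0.82), none called. In untreated cells MYC was lower in BL-41 than in SU-DHL-4 or Oci-Ly-2 by its brighter probe (-0.89 and -1.04). A relation between the MYC level and the levels of the members was not tested. The brightest probes of ACTB and GAPDH differed by -0.17 to 0.09 at 12 h.

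A wider list of 107 other assembly factors (139 probes) had 12 h medians of -0.04, -0.13 and -0.17. Calls numbered 2, 3 and 5 of 139, all lower, while 0.572%, 0.344% and 1.44% of all probes were called lower. Of all probes, 0.939%, 0.588% and 1.59% were called higher. The largest change was in UTP3, a factor of the small subunit processome, at -0.93, -1.39 and -1.23 in the 3 lines (adjusted p = 0.00763, 0.000315 and 0.000475). DCAF13, of the same processome, stood at -0.55, -0.94 and -1.24 (adjusted p = 0.0522, 0.00147 and 3.91e-05), and UTP15 at -0.47, -0.78 and -1.07, called in Oci-Ly-2 only (adjusted p = 0.000617). POLR1G, a polymerase I subunit, was at -0.43, -0.65 and -0.50 and PNO1 at -0.46, -0.44 and -0.57, none called. The UTP3 call in BL-41 was lost without any 1 of its 4 arrays (adjusted p = 0.0506 to 0.0799), under median scaling (0.0232) and with no detection filter (0.0143). The UTP3 calls of the other lines were lost without replicate 3 of either 12 h group (adjusted p up to 0.0168 and 0.0156), while the DCAF13 call in Oci-Ly-2 held in all 4 fits. DCAF13 in SU-DHL-4 was lost without 12 h artesunate replicate 3 or either 12 h control array (adjusted p up to 0.0477), and UTP15 in Oci-Ly-2 without replicate 1 of either 12 h group (adjusted p up to 0.012). Cytosolic ribosomal proteins (112 probes of 69 genes), the parts that the set assembles, had medians near 0, at -0.03, 0.01 and -0.02. Their calls numbered 1, 1 and 4 of 112, all lower, beside 0.572%, 0.344% and 1.44% of all probes called lower.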

How the data were processed

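RNA of 3 cell lines was hybridised to 24 Illumina HumanHT-12 v4 arrays. The deposited non-normalized table, made by the authors from the scanner output, held a signal intensity and a detection p-value for each of 47319 probes on each array. The deposited processed values were intensities on the linear scale. After taking log2 they matched log2 quantile-normalized signals to within 0.0207, and they served as an alternative. Per the labels and the study's methods the authors used limma, averaged the technical replicates, called genes at the fold and false discovery rate limits applied here (0.5 on the log2 scale and 0.01), and kept for each symbol its probe of lowest log fold change. Whether the authors had background-corrected the deposited signals was not given in the sources used here. Here the intensities were background-corrected with the detection p-values and quantile-normalized by neqc (offset 16) in limma 3.58.1 under R 4.3.3. Probes with detection p under 0.05 on at least 2 arrays were tested (25017). A limma model held 12 groups of 2 arrays (12 residual degrees of freedom, prior 7.42), and p-values were adjusted over all tested probes by Benjamini-Hochberg. A second limma fit took the 3 cell lines as replicates (2 residual degrees of freedom, prior 6.71). The number of arrays limits the precision. The scripts were tested on simulated data. Gene names came from the platform annotation, in which 30112 probes had 1 symbol, 8 had several and 17199 had none. Genes were given by their brightest probe, and values on every array were given for members with a called probe at 12 h, for the polymerase I group, and for FBL and NCL. The 5 largest differences per pair of untreated lines were also named, with MYC, ACTB, GAPDH and up to 5 other assembly factors with the largest mean change. The members and lists were chosen with earlier results of these data known. Alternatives were the deposited values, no background correction, median scaling, other filters and thresholds, 1 probe per gene, a replicate block and leaving out each array or line.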

Additional observations from a re-analysis of the deposited data

How the results depend on the processing

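Counts of called member probes moved more often than medians, each by its own limit. Outside leave-one-out fits, 24 of the counts under an alternative moved, by over 1.5 times or to or from 0, and 137 did not. Of the medians, 4 moved by at least the pooled SD of 0.0788 between arrays of a group, and 138 did not. For single probes 483 values kept their side of the threshold, 4 lost a call, 10 gained one and 0 were counted as reversed. A change of sign counted as a reversal only with a call in either fit or with both estimates beyond their SE. Sign changes of smaller differences were not counted. The deposited values and the setting with no background correction are nearly the same values, so these tallies count nearly the same setting under both names. With the deposited processed values, and likewise with no background correction, there were 4 calls for 12 h against 4 h of artesunate in SU-DHL-4, 7 between untreated BL-41 and Oci-Ly-2 and 6 for untreated SU-DHL-4 against Oci-Ly-2, and the 12 h against 4 h median in Oci-Ly-2 was -0.18. Median scaling left 1 call at 12 h in Oci-Ly-2. The fit with cell lines as replicates had 0 calls under median scaling, no filter, the stricter filter, and without cell line SU-DHL-4 or Oci-Ly-2. It also had 0 calls with the brightest probe per gene, a setting that leaves out the NOP56 probe called in the main fit. For 12 h against 4 h in SU-DHL-4 there was 1 call with no filter, 3 with the stricter filter and 3 with the brightest probe per gene. At an adjusted p under 0.05 there was 1 call at 12 h in SU-DHL-4, while 12 h against 4 h gave 1, 7 and 8 calls in the 3 lines and the fit over lines gave 2. With the brightest probe per gene, Oci-Ly-2 had 1 call at 12 h, untreated SU-DHL-4 against Oci-Ly-2 had 6, and the untreated medians were 0.24 for BL-41 minus SU-DHL-4 and -0.097 for SU-DHL-4 minus Oci-Ly-2. The cause of these changes was not tested.

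With 2 numbers per group, and no label saying that a number marks a shared culture or batch, the numbers were not taken to pair the samples. Deviations of same-numbered arrays correlated at -0.14, 0.12 and 0.10 in the 3 lines between the 12 h groups, at 0.14, 0.28 and 0.16 between 4 h artesunate and 0 h control, and at 0.13, 0.10 and 0.11 between the 12 h and 0 h controls, so a shared effect of the number was not excluded. With the replicate number as a block, 12 h against 4 h gave 1 call in SU-DHL-4, and no other count moved by over 1.5 times. With the BL-41 numbers crossed, a choice made after seeing the data, there were 0 calls at 12 h in BL-41.

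Leaving out 1 array at a time gave 0 to 2 calls at 12 h in Oci-Ly-2, 0 to 1 in SU-DHL-4, and for 12 h against 4 h 0 to 1 in Oci-Ly-2 and 0 to 3 in SU-DHL-4. The medians ranged from 0.0678 to 0.2023 for untreated BL-41 minus SU-DHL-4, from 0.0421 to 0.1673 at 4 h and from -0.2226 to -0.0715 at 12 h in SU-DHL-4, and from -0.0582 to 0.11 for the difference in 12 h response of SU-DHL-4 minus Oci-Ly-2. The values 0.0678 and 0.0421 came without SU-DHL-4 0 h control replicate 1 and -0.0715 without SU-DHL-4 12 h artesunate replicate 3. With 2 technical arrays per group, dim probes such as TCOF1 gave no usable difference.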
